A study of Mus musculus with 4 samples.

Results

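A set of 9 genes of the neurexin, neuroligin, Lrrtm and neurexophilin families were followed in tdTomato-positive cells of the embryonic mouse basal telencephalon, namely *Nrxn2*, *Nrxn3*, *Nlgn1*, *Nlgn2*, *Nlgn3*, *Lrrtm1*, *Lrrtm2*, *Lrrtm3* and *Nxph1*. They were chosen by name, as synaptic adhesion genes, with earlier results of these data known. They make up 9 of the 56883 genes in the deposited table. All 9 were among the 14323 genes tested, whose normalized counts averaged at least 10. These families hold further genes that are not reported here. The comparison asked how the RNA of these genes differed between *Dnmt1*-deficient and control interneurons of the somatostatin (*Sst*) lineage. Control cells came from *Sst-Cre/tdTomato* embryos and *Dnmt1* KO cells from *Sst-Cre/tdTomato/Dnmt1 loxP2* embryos, both taken at E14.5 (day of embryonic development). Both genotypes thus carried the Cre allele, which is expressed where the *Sst* locus is active, and the tdTomato reporter that Cre switches on. Cells were sorted by tdTomato fluorescence and pooled over embryos, 50000 cells per genotype, with 2 libraries sequenced for each. The p-values therefore rest on the spread between pooled samples and not between single embryos. In the limma fits that spread was shared across genes of similar level, so it was not that of a gene's own libraries alone.

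The libraries held between 6970247 and 8376711 reads assigned to genes. *Dnmt1*, the targeted gene and the maintenance DNA methyltransferase, had normalized counts of 2238 and 2341 in the control and 2164 and 2210 in the *Dnmt1* KO libraries, a log2 fold change of -0.07 ± 0.054 (SE, n = 2 libraries per genotype, limma adjusted p = 0.461). Reads of transcripts that lack the floxed exons still count toward the gene, so this value checks neither the recombination nor the labels. The sorted cells carried the defining transcripts of the lineage. All 11 interneuron markers examined, among them *Sst*, *Lhx6*, *Sox6*, *Gad1* and *Gad2*, were called higher in *Dnmt1* KO cells (limma, adjusted p below 0.05). Of all genes tested, limma called 8.3% higher and 8.99% lower. The summed normalized count of the 11 markers was 23513 to 23565 in control and 34686 to 35316 in *Dnmt1* KO libraries. Summed markers of other cells were lower in both *Dnmt1* KO libraries. Radial glia markers summed to 10148 to 10242 against 6024 to 6226 (6 of 8 lower, *Sox2* higher), cycling markers to 5486 to 5619 against 3941 to 3990 (6 of 6 lower) and excitatory lineage markers to 2550 to 2603 against 1334 to 1468 (5 of 7 lower). Blood markers summed to 2231 to 2411 against 560 to 568 (6 of 6 tested lower) and markers of other non-neuronal cells to 617 to 657 against 315 to 339 (6 of 10 tested lower). Of the globin genes among them, *Hbb-bh1* was at 0 in the first *Dnmt1* KO library. The part of these other cells in the differences described here was not tested, and in sorted pools a change in the share of a cell type and a change in RNA per cell cannot be told apart.

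Neurexins are presynaptic adhesion molecules that are made from several promoters and spliced into many isoforms. They bind partners on the postsynaptic membrane across the cleft, among which neuroligins and leucine-rich repeat transmembrane (Lrrtm) proteins are the best known. Neuroligin-1 acts mainly at excitatory synapses and neuroligin-2 at inhibitory synapses, while neuroligin-3 is found at both, and Lrrtm proteins organise excitatory synapses. Neurexophilins are secreted glycoproteins that bind the extracellular part of alpha-neurexins, and *Nxph1* is typical of interneurons from the medial ganglionic eminence. At this age cells of the lineage migrate toward the cortex, before most synapses form. The authors describe Cre expression in this lineage as postmitotic, while cycling markers were also counted in the sorted pools, as given above.

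The windows around the annotated starts of 3 members are shown because DNMT1 methylates cytosine in CG. They were picked for their low CG content after the counts were seen, and do not stand for the set, in which other windows held more. Each runs 5′ to 3′ on the strand of its gene from 250 bases before to 50 bases after the start of the canonical transcript in GRCm39, with every CG in capitals.
Nrxn3, chr12:88761024-88761323, plus strand: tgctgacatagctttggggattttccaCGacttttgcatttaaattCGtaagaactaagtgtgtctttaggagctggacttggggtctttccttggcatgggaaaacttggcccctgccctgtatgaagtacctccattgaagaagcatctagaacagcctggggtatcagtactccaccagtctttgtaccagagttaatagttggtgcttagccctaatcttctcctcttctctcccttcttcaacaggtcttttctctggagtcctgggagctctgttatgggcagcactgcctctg
Nxph1, chr6:8949426-8949725, plus strand: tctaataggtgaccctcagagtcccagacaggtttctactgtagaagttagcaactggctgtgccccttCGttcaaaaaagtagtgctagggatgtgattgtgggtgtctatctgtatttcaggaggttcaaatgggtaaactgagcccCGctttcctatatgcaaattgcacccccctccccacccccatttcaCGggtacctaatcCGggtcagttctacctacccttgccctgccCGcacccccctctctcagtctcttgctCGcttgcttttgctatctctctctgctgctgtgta
Nlgn1, chr3:26386560-26386859, minus strand: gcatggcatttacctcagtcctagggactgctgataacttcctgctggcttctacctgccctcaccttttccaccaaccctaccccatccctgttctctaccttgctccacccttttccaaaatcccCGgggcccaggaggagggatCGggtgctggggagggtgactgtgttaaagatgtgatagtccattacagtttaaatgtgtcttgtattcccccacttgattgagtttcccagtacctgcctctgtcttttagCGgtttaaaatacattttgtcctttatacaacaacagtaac

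The *Nrxn3* window held 2 CG, that of *Nlgn1* 3 and that of *Nxph1* 6. Over the windows of 12278 protein-coding genes tested the median was 18 CG and the middle 50% lay between 11 and 25. Of all windows, 98.7% held at least as many CG as *Nrxn3*. There were 6 CG in the window of *Lrrtm2*, 8 in *Lrrtm3*, 12 in *Nlgn3*, 19 in *Lrrtm1* and 25 in *Nlgn2*. The homeodomain core TAATTA, which reads the same on both strands, occurred in 3.03% of all windows and in none of these 8 windows, which are those of the members other than *Nrxn2*. These are counts of letters at a single annotated start per gene. *Nrxn3*, with 14 annotated transcripts, has further starts, and its canonical start lies downstream of the most upstream one. The bases just before that canonical start hold a run of c and t and end in cag, the form of a splice acceptor. The *Nrxn3* window may therefore be the end of an intron, and its CG count cannot be read as that of a promoter. Methylation of these windows was not analysed here.

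Of the 9 genes, 6 were called higher in *Dnmt1* KO cells, namely *Nrxn3*, *Lrrtm2*, *Nxph1*, *Nrxn2*, *Nlgn3* and *Nlgn2*, and 0 were called lower by limma (also 0 lower at an unadjusted p under 0.05). Calls rest on an adjusted p below 0.05 (limma on log2(normalized count + 1), Benjamini-Hochberg over all genes tested). Among all genes tested, 8.3% were called higher and 8.99% lower. The median log2 fold change was 0.43 over the 9 genes and -0.003 over all genes tested. In all 9 genes the libraries of the 2 genotypes did not overlap, 6 with higher and 3 with lower *Dnmt1* KO libraries, a pattern found in 57.4% of all genes tested. An exact permutation test of 2 against 2 libraries cannot give a p below 0.333, so no single-gene permutation test was used. With DESeq2 on the reads recovered from the normalized counts, 5 of the 9 were called higher and 0 lower, against 4.43% higher and 4.77% lower among all genes tested. The exception was *Lrrtm2*.

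**Figure D1:**
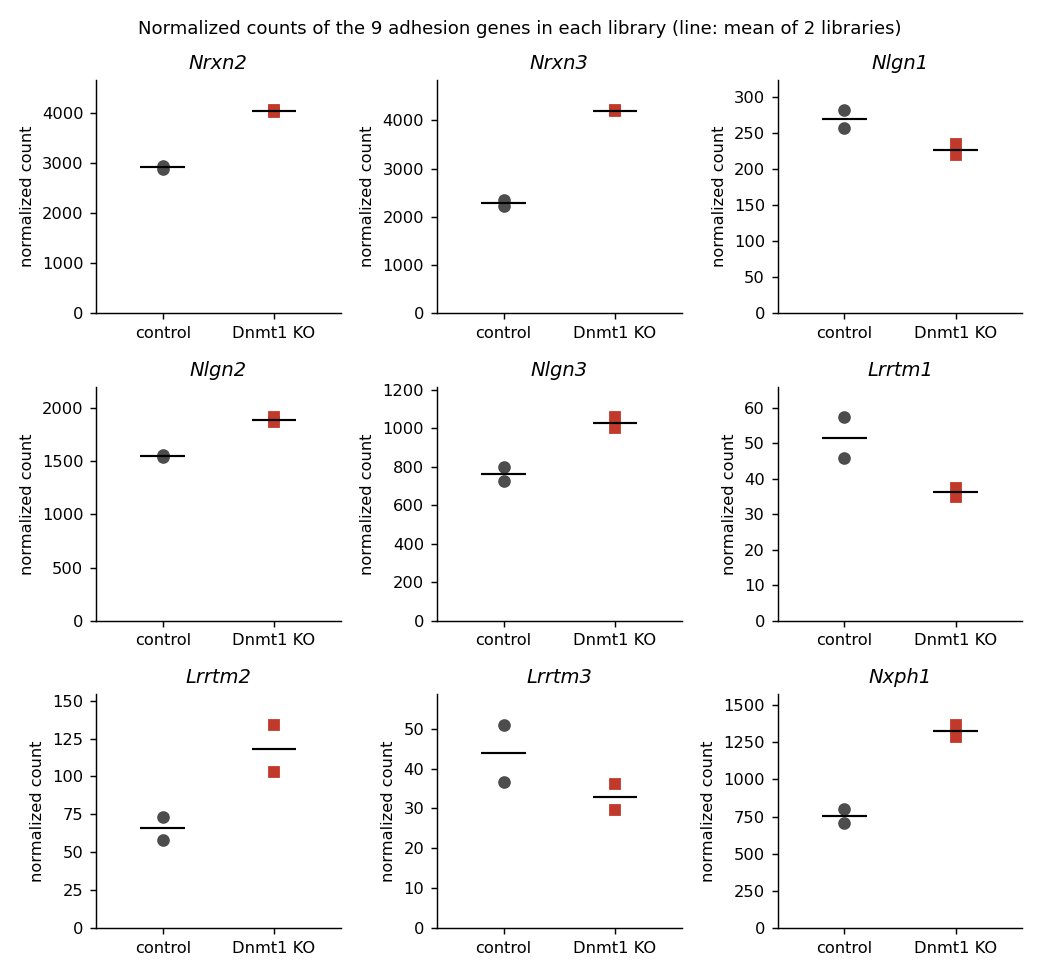
Normalized count (reads divided by the size factor of the library, linear axes from 0) of each of the 9 adhesion genes in the 2 control (grey circles) and 2 *Dnmt1* KO libraries (red squares), with a line at the mean. *Nrxn3* moved from 2226 and 2350 to 4188 and 4206, while *Nlgn1*, *Lrrtm1* and *Lrrtm3* had both *Dnmt1* KO libraries below both control libraries without passing the test.

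Both neurexin genes rose, *Nrxn3* about 1.84-fold and *Nrxn2* 1.39-fold. *Nrxn3* (ENSMUSG00000066392.13) spans 1612064 bases of chromosome 12 (88689646 to 90301709, plus strand) and is among the longest genes of the mouse genome. Its normalized counts were 2226 and 2350 in the control and 4188 and 4206 in the *Dnmt1* KO libraries. Every *Dnmt1* KO library thus exceeded every control library, and the gap between genotypes was far larger than the gap within either. The log2 fold change was 0.88 ± 0.050 (SE, limma adjusted p = 2.88e-08), and 97.0% of the genes tested had a lower log2 fold change. *Nrxn2* (ENSMUSG00000033768.18, chromosome 19, 6468761 to 6594199, plus strand) encodes the neurexin-2 isoforms. It was counted at 2946 and 2882 in the control and 4025 and 4051 in the *Dnmt1* KO libraries, again with no overlap. Its log2 fold change was 0.47 ± 0.048 (SE, limma adjusted p = 7.20e-06). Both genes stayed called with each library left out, with adjusted p of at most 2.20e-06 for *Nrxn3* and 0.000178 for *Nrxn2*. The counts sum over all isoforms, so alpha- and beta-neurexins and splice variants were not separated.

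Of the neuroligin genes, *Nlgn2* and *Nlgn3* rose, while *Nlgn1* did not pass the test. *Nlgn2* (ENSMUSG00000051790.16, chromosome 11, 69713948 to 69728613, minus strand), the neuroligin of inhibitory synapses, had 1555 and 1537 normalized counts in the control and 1872 and 1913 in the *Dnmt1* KO libraries. *Nlgn3* (ENSMUSG00000031302.17, chromosome X, 100342750 to 100369570, plus strand) had 800.0 and 724.8 against 1001 and 1057. In both genes the 2 *Dnmt1* KO libraries lay above the control libraries. The log2 fold changes were 0.29 ± 0.057 (SE, limma adjusted p = 0.00244) for *Nlgn2* and 0.43 ± 0.076 (limma adjusted p = 0.000993) for *Nlgn3*, and both remained called with each library left out (adjusted p of at most 0.0154 and 0.0134). *Nlgn1* (ENSMUSG00000063887.14, chromosome 3, 25480379 to 26386609, minus strand), the neuroligin of excitatory synapses, was counted at 257.7 and 281.8 in the control and 234.8 and 219.6 in the *Dnmt1* KO libraries. Its *Dnmt1* KO libraries lay below the control libraries, but the log2 fold change of -0.25 ± 0.118 (SE) had a limma adjusted p of 0.174 and a 95% interval from -0.50 to 0.0043. Its call depended on the treatment of transcript length, as described further down.

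The Lrrtm genes rested on 30 to 136 reads per gene and library, and 1 of them rose. *Lrrtm2* (ENSMUSG00000071862.4, chromosome 18, 35342056 to 35348120, minus strand) rose from 73.4 and 58.2 normalized counts in the control to 134.1 and 102.7 in the *Dnmt1* KO libraries, which is a log2 fold change of 0.84 ± 0.207 (SE, limma adjusted p = 0.0110). The *Dnmt1* KO libraries were both higher, though they differed from each other by more than the control libraries did. The call was lost without the second control library (0.67, adjusted p = 0.0978), without the first *Dnmt1* KO library (0.64, adjusted p = 0.0859) and with DESeq2 (adjusted p = 0.0610). *Lrrtm1* (ENSMUSG00000060780.3, chromosome 6, 77218820 to 77235200, plus strand) had 57.3 and 45.9 against 37.5 and 35.0 normalized counts, and *Lrrtm3* (ENSMUSG00000042846.9, chromosome 10, 63763854 to 63926056, minus strand) had 36.7 and 51.0 against 29.6 and 36.1. Both genes had lower *Dnmt1* KO libraries, in *Lrrtm3* by a margin of less than 1 normalized count. Neither passed the test, with log2 fold changes of -0.49 ± 0.268 (SE, limma adjusted p = 0.237) for *Lrrtm1* and -0.40 ± 0.296 (limma adjusted p = 0.408) for *Lrrtm3*. The 95% intervals, -1.06 to 0.08 and -1.03 to 0.24, leave room for a fall by more than 1 on the log2 scale as well as for no change.

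*Nxph1* (ENSMUSG00000046178.4, chromosome 6, 8948431 to 9249616, plus strand), the neurexin ligand of this lineage, rose by nearly as much as *Nrxn3*. It was counted at 800.0 and 706.5 in the control and 1286 and 1369 in the *Dnmt1* KO libraries. The genotypes were clearly apart, with a log2 fold change of 0.82 ± 0.076 (SE, limma adjusted p = 3.38e-06) and an adjusted p of at most 8.27e-05 with any library left out. Of the other neurexophilins, *Nxph2* rose from 109.2 and 107.2 to 219.0 and 238.2 (log2 fold change 1.07 ± 0.142, limma adjusted p = 9.26e-05). *Nxph4* fell from 103.8 and 151.1 to 85.8 and 67.7 (-0.71 ± 0.210, limma adjusted p = 0.0297). Its call was lost with DESeq2 (adjusted p = 0.131), without the second control library (0.320) and without the second *Dnmt1* KO library (0.0891). *Nxph3*, at 14.32 and 22.46 against 27.62 and 12.02, overlapped between genotypes and had an adjusted p of 0.981.

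Ratios between 2 genes within a library do not depend on the scaling between libraries. Each difference in log2 ratio is close to the difference between 2 log2 fold changes given above. In control libraries there were 0.755 and 0.815 reads of *Nrxn3* per read of *Nrxn2*, and in *Dnmt1* KO libraries 1.04 in both, a difference of 0.41 on the log2 scale. *Nlgn1* gave 0.166 and 0.183 reads per *Nlgn2* read in the control and 0.125 and 0.115 in the *Dnmt1* KO, a difference of -0.54. The ratio of the excitatory to the inhibitory neuroligin was thus lower in both *Dnmt1* KO libraries, though *Nlgn1* itself was not called (limma adjusted p = 0.174). *Nlgn3* per *Nlgn2* was 0.514 and 0.471 against 0.535 and 0.552, apart by 0.14 on the log2 scale. *Lrrtm2* per *Lrrtm1* went from 1.28 and 1.27 to 3.58 and 2.94, a difference of 1.35, on 32 to 136 reads per gene. In contrast, *Lrrtm1* per *Lrrtm3* overlapped between genotypes (1.56 and 0.900 against 1.27 and 0.970). *Nxph1* per *Nrxn3* overlapped too, at 0.359 and 0.301 against 0.307 and 0.325, and their log2 means differed by -0.06. These differences in ratio were not tested and are given as a description.

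**Figure D2:**
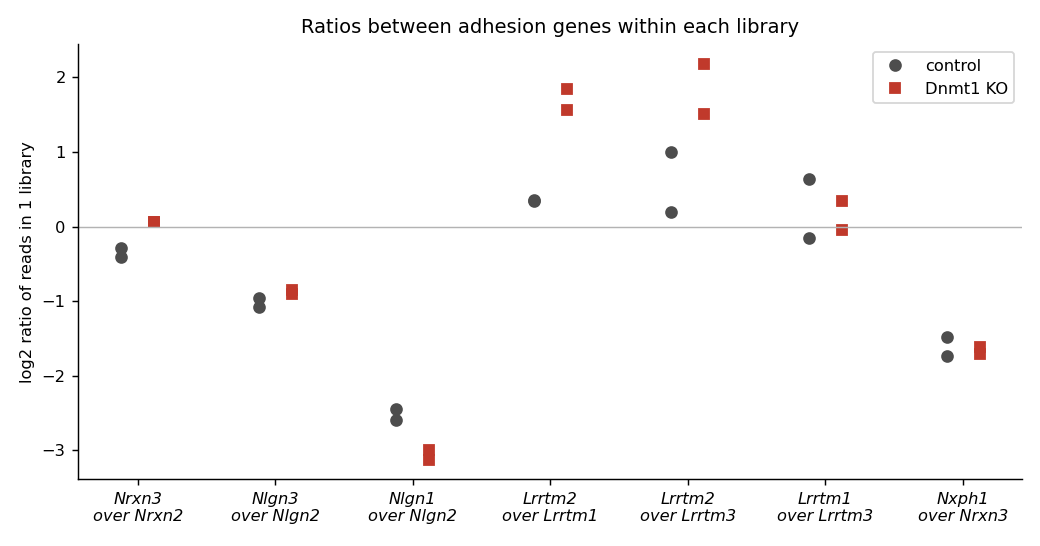
Log2 ratio of the reads of 2 adhesion genes within each library, for 7 pairs, with control libraries as grey circles and *Dnmt1* KO libraries as red squares. The *Nrxn3* to *Nrxn2* and *Lrrtm2* to *Lrrtm1* ratios were higher and the *Nlgn1* to *Nlgn2* ratio lower in both *Dnmt1* KO libraries, whereas *Lrrtm1* to *Lrrtm3* and *Nxph1* to *Nrxn3* overlapped.

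Levels between genes were compared per kilobase of annotated exon. In control cells the order was *Nlgn2* (251 normalized counts per kb, mean of 2 libraries), *Nrxn2* (211), *Nrxn3* (180), *Nxph1* (141), *Nlgn3* (82.0), *Nlgn1* (19.1), *Lrrtm1* (12.7), *Lrrtm2* (10.9) and *Lrrtm3* (9.28). Among the last 3 the library values per kb ran from 7.76 to 14.1 and overlapped between neighbours, so their order in control cells was not resolved. In *Dnmt1* KO cells *Nrxn3* came first (331 per kb), followed by *Nlgn2* (307), *Nrxn2* (292), *Nxph1* (249), *Nlgn3* (111), *Lrrtm2* (19.5), *Nlgn1* (16.1), *Lrrtm1* (8.90) and *Lrrtm3* (6.94). *Nrxn3* had moved to the front of the order, and its libraries (330 and 332) did not overlap those of *Nlgn2* (304 and 310). *Lrrtm2* (16.9 and 22.1) passed *Nlgn1* (15.6 and 16.6). The place of a gene depends on the length used. Per kb of the canonical transcript *Nrxn2* was first in both genotypes, with 437 in control and 606 in *Dnmt1* KO cells, against 289 and 530 for *Nrxn3*.

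Relative to the interneuron markers, the log2 differences were smaller or negative. The summed count of the 11 markers differed by 0.57 on the log2 scale. Per summed marker count, *Nrxn3* was higher by 0.30, *Lrrtm2* by 0.27 and *Nxph1* by 0.25 in *Dnmt1* KO cells, whereas the log2 differences were -0.10 for *Nrxn2*, -0.14 for *Nlgn3* and -0.28 for *Nlgn2*. Measured gene by gene, *Nrxn3*, *Lrrtm2* and *Nxph1* each had a larger log2 fold change than 10 of the 11 markers, *Nrxn2* and *Nlgn3* a larger one than 4, and *Nlgn2* a larger one than 0. The rank of *Lrrtm2* and *Nxph1* against *Sox6* (0.80), and of *Lrrtm2* against *Lhx6* (0.73), was not resolved. With each library left out, *Lrrtm2* ranged from 0.64 to 1.03 and *Nxph1* from 0.73 to 0.91. Per summed marker count, the genes that were not called lay farther down, at -0.82 for *Nlgn1*, -1.08 for *Lrrtm1* and -0.98 for *Lrrtm3*. This scale was chosen after the values were seen and carries no test, and the markers themselves differed between genotypes.

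**Figure D3:**
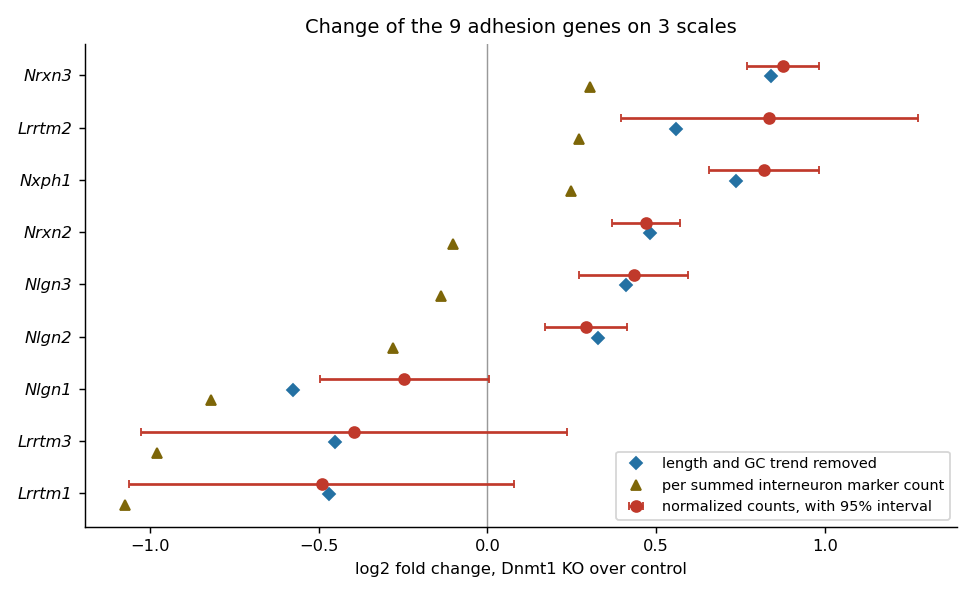
Log2 fold change (*Dnmt1* KO over control) of the 9 adhesion genes on the normalized counts (red circles, bars give the 95% interval from limma), with the transcript length and GC trends taken out of each library (blue diamonds) and per summed count of 11 interneuron markers (brown triangles). *Nrxn3*, *Lrrtm2* and *Nxph1* were above 0 on all 3 scales, *Nrxn2*, *Nlgn3* and *Nlgn2* on the first 2, and *Nlgn1*, *Lrrtm3* and *Lrrtm1* on none.

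The log2 fold change rose with transcript length over the whole table, by 0.053 for each doubling of length over 14285 genes, while the slope between the libraries of 1 genotype was -0.0019 for control and -0.0033 for *Dnmt1* KO. In the top length decile (7233 bases and longer) the median log2 fold change was 0.11 and 26.7% were called higher, against 2.87% in the bottom decile. *Nrxn3* (7922 bases), *Nlgn3* (8591) and *Nlgn1* (11807) have canonical transcripts in the top decile. *Nrxn2* (6667) and *Lrrtm2* (5716) lie in the decile below it, where 13.9% were called higher. *Nlgn2* (5571) lies in the decile below that, with 8.82% called higher. The transcripts of *Lrrtm3* (4293), *Nxph1* (3164) and *Lrrtm1* (2548) are shorter. With the length and GC trend of each library removed, 5 of the 9 genes were called higher and 1 lower, beside 7.69% higher and 8.8% lower among all genes tested. *Nrxn3* (0.84), *Nxph1* (0.74), *Nrxn2* (0.48), *Nlgn3* (0.41) and *Nlgn2* (0.33) stayed called, with limma adjusted p of at most 0.00168. *Lrrtm2*, whose transcript has only 38.5% GC, came to 0.56 and was no longer called (adjusted p = 0.0751). *Nlgn1*, the longest transcript of the set and at 38.9% GC, came to -0.58 and was called lower (adjusted p = 0.00341). Whether the trend over length came from the libraries or from the cells was not tested.

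**Figure D4:**
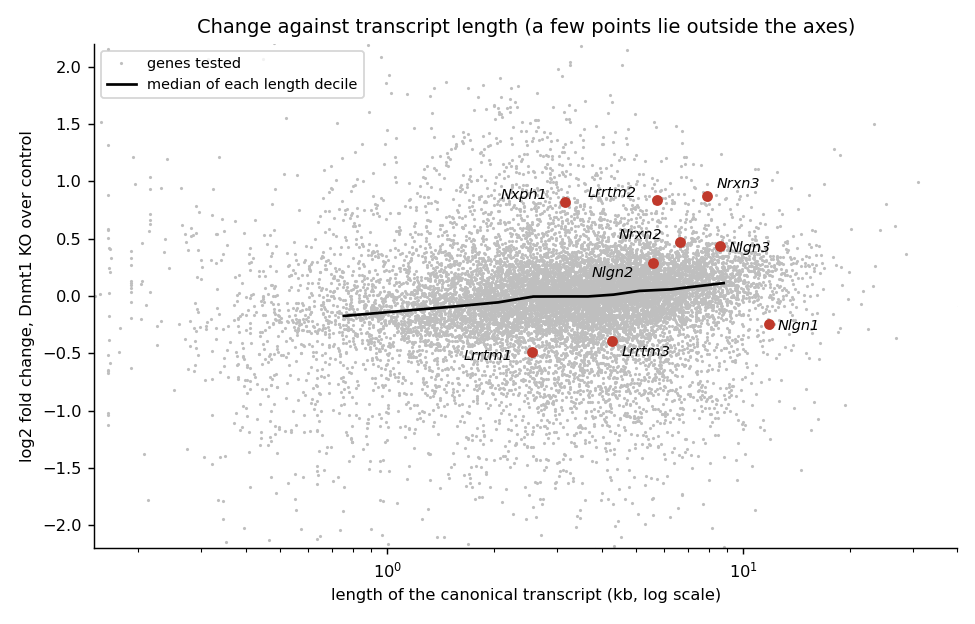
Log2 fold change (*Dnmt1* KO over control) of the tested genes against the length of the canonical transcript in kb (log axis), with the 9 adhesion genes in red and the median of each length decile as a black line. The line climbs from -0.17 in the bottom to 0.11 in the top decile. *Nrxn3*, *Lrrtm2* and *Nxph1* lie well above it, while *Nlgn1*, *Lrrtm1* and *Lrrtm3* lie below.

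Several members share their locus with another gene. The authors used a stranded library kit, but whether reads were counted by strand is not given in the sources used here. *Lrrtm1* lies within *Ctnna2*, *Lrrtm2* within *Ctnna1* and *Lrrtm3* within *Ctnna3*, each on the opposite strand of the catenin gene. *Ctnna2* had 2640 and 2629 normalized counts in the control and 2928 and 3187 in the *Dnmt1* KO libraries, so it was higher where *Lrrtm1* was lower. *Ctnna1* had 589.7 and 625.8 against 339.3 and 390.1, lower where *Lrrtm2* was higher. *Ctnna3* had at most 2.04. Exons of *Lrrtm2* and *Ctnna1* share 138 bases, and those of *Lrrtm1* and *Lrrtm3* share none with the host gene. *Nlgn3* shares 3823 exon bases with the non-coding gene *Gm21986* on the same strand, which had 360.6 and 401.2 against 368.9 and 376.9, so how reads were divided between them is uncertain. *Nlgn1* shares 1229 bases with *A830092H15Rik* on the opposite strand, which had 8.88 to 25.1 normalized counts.

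The genes whose pattern over the 4 libraries was most like that of *Nrxn3* were *Ptprm*, a receptor tyrosine phosphatase with adhesive function, *Dlgap2*, a postsynaptic scaffold, and the small RNA *Scarna10*. Likeness was the root mean square difference of the centred log2 values over 4 libraries, among 8412 genes that averaged at least 100 normalized counts, and came to 0.0059, 0.0286 and 0.0295. *Ptprm* had 740.9 and 787.1 normalized counts in the control and 1391 and 1411 in the *Dnmt1* KO libraries. For *Lrrtm1*, the member with the lowest log2 fold change, the nearest genes were *Fibcd1* (0.0165), *Lrig1* (0.0391) and *Eml1* (0.0433). With 4 values per gene such a likeness mainly says that the genes had similar fold changes.

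Genes around these adhesion molecules were described from lists that were chosen with earlier results of these data known. Over all genes tested, limma called 8.3% higher and 8.99% lower, and DESeq2 4.43% and 4.77%. The median of every list was below the 0.57 by which the summed interneuron markers differed on the log2 scale. Among extracellular partners of neurexins and neuroligins, 18 of 24 were tested, 3 were called higher and 2 lower, with a median log2 fold change of -0.17. *Grid1*, the delta glutamate receptor that is linked to neurexins by cerebellins, rose from 203.1 and 218.5 to 330.4 and 345.3 (0.68 ± 0.112, limma adjusted p = 0.000647). *Tafa2*, a secreted neurexin ligand (0.67, adjusted p = 0.00558), and the calsyntenin gene *Clstn1* (0.25, adjusted p = 0.00435) rose as well, *Tafa2* not without the first control library (adjusted p = 0.0584). *Mdga1*, whose product binds neuroligin-2 and blocks its contact with neurexin, fell from 513.7 and 442.0 to 224.9 and 246.9 (-1.01 ± 0.110, limma adjusted p = 1.47e-05). The glypican gene *Gpc4* fell too (-0.67, adjusted p = 0.00716), but was not called with DESeq2 (0.0616) or without the second control library (0.0818).

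Other synaptic organizers, such as receptor phosphatases and leucine-rich repeat proteins, were called higher in 9 and lower in 1 of the 29 tested of 30 listed, with a median of 0.13. *Elfn1*, a postsynaptic organizer of *Sst* interneurons, rose from 430.4 and 439.0 to 766.4 and 831.5 (0.88 ± 0.083, limma adjusted p = 4.19e-06), and *Ptprd*, a presynaptic receptor phosphatase, from 1991 and 1942 to 3277 and 3473 (0.78, adjusted p = 1.52e-07). *Lrfn2* (0.86, adjusted p = 0.0145) and the netrin-G gene *Ntng2* (-0.77, adjusted p = 0.0190) were not called with DESeq2 (0.0905 and 0.135) or without the second control library (0.149 and 0.0528), and *Ntng2* not without the first (0.160). With DESeq2, 3 genes of this list were called higher and 0 lower, beside 4.43% and 4.77% of all genes tested. The number called higher was 5 without the first control library.

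Intracellular scaffolds bind the tails of these receptors, and 12 of the 29 tested of 30 were called higher by limma and 0 lower, the latter also at an unadjusted p under 0.05 and with DESeq2, with a median of 0.20. The largest called changes were those of *Dlgap2* (488.6 and 498.2 against 927.2 and 891.6, 0.88 ± 0.078, limma adjusted p = 1.98e-06), *Dlgap1* (0.64, adjusted p = 3.19e-06) and *Iqsec3*, a scaffold of inhibitory synapses (0.50, adjusted p = 0.00213). Of all genes tested, 8.3% were called higher and 8.99% lower by limma. Genes of vesicle release were called higher in 15 and lower in 2 of 28, with a median of 0.30. Among them were the vesicular GABA transporter *Slc32a1* (1057 and 1091 against 1713 and 1629, 0.64 ± 0.063, adjusted p = 5.91e-06), the active zone gene *Pclo* (0.58, adjusted p = 1.40e-06) and the calcium sensor *Syt1* (0.49, adjusted p = 3.68e-05). *Sv2b* (-1.22, adjusted p = 0.00842) and *Unc13c* (-0.94, adjusted p = 0.0110) fell, on normalized counts below 90, and neither was called with DESeq2 (0.0634 and 0.0830) or without the second control library (0.0988 and 0.0935), nor *Unc13c* without the first (0.0597).

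Splicing regulators that can act on neurexin exons were called higher in 5 and lower in 2 of 15, with a median of 0.08. The limma shares over all genes tested were 8.3% higher and 8.99% lower. The neuronal RNA-binding proteins *Elavl2* (0.44, adjusted p = 0.000246), *Nova2* (0.37, adjusted p = 0.000262) and *Srrm4* (0.29, adjusted p = 0.0108) rose. With the length and GC trend removed *Elavl2* came to 0.16 and was then not called (adjusted p = 0.105), and *Srrm4* was not called without the second control library (0.0705) or the second *Dnmt1* KO library (0.121). *Ptbp1*, a splicing repressor of progenitors, fell from 664.9 and 609.5 to 422.2 and 482.9 (-0.49 ± 0.093, limma adjusted p = 0.00181), beside the lower progenitor markers given above. *Khdrbs3*, which encodes SLM2 and acts on neurexin splicing, fell from 1380 and 1512 to 1142 and 1075 (-0.38 ± 0.068, limma adjusted p = 0.00121). Of 8 proteases that cleave neurexins or neuroligins, 0 were called in either direction by limma or DESeq2, with 2 lower and 0 higher at an unadjusted limma p under 0.05.

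**Figure D5:**
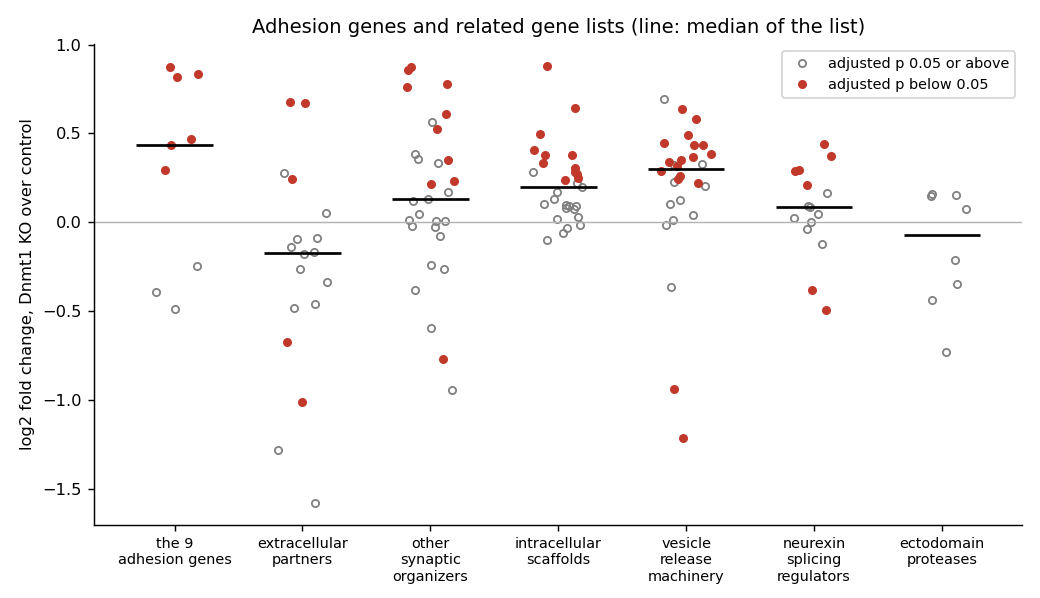
Log2 fold change (*Dnmt1* KO over control) of every tested gene in the set of 9 adhesion genes and in 6 related lists, with called genes (limma adjusted p below 0.05) in red, others as open circles and a line at the median. The medians were 0.43 for the 9 adhesion genes, 0.30 for vesicle release, 0.20 for scaffolds, 0.13 for other organizers and -0.17 for extracellular partners.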

How the data were processed

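RNA-seq of 4 libraries from cells sorted at E14.5 was analysed. The authors used Trim Galore for trimming, STAR for alignment to GRCm39, Salmon for quantification and DESeq2 for normalization of gene counts. The deposited signal is a normalized count, reads divided by the library's size factor. Multiplied back, 100% of the 89965 values above 0 gave whole reads (tolerance 0.0001 read). limma 3.58.1 in R 4.3.3 compared the genotypes (eBayes with a variance trend, no covariate) for genes averaging at least 10, on log2(normalized count + 1), a scale that understates changes of low genes, with Benjamini-Hochberg adjustment over all of them. Alternatives included edgeR 4.0.16, DESeq2 1.42.0 and limma-voom on recovered reads, other filters, pseudocounts and scalings, removal of the length and GC trend (splines with 5 degrees of freedom), a replicate block and each library left out. Annotation and promoter windows came from the GENCODE annotation and genome sequence of GRCm39. The steps were tested on simulated data. Named were the 9 members, other neurexophilins, the 3 largest called changes in each direction per list, the 3 genes most like the members with the highest and lowest log2 fold change, *Dnmt1*, and other cell type markers by counts and ranges. Members and lists were chosen with earlier results of these data known. A few genes under this rule and 1 promoter window are not reported here. Replicate numbers paired no libraries (correlation of deviations -0.085 over 14323 genes).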

Additional observations from a re-analysis of the deposited data

How the results depend on the processing

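Of the 6 genes called higher, *Nrxn2*, *Nrxn3*, *Nlgn2*, *Nlgn3* and *Nxph1* were called under each alternative listed in the methods except limma without the variance trend. That fit called 0 members and 0 genes higher or lower, with 1507 genes higher and 1832 lower at an unadjusted p under 0.05 (6 and 1 members). Its estimates were 0.47 for *Nrxn2*, 0.88 for *Nrxn3*, 0.29 for *Nlgn2*, 0.43 for *Nlgn3*, 0.84 for *Lrrtm2* and 0.82 for *Nxph1*, with adjusted p from 0.0616 to 0.170. edgeR called 1226 genes higher and 1302 lower, limma-voom 1227 and 1269, and DESeq2 634 and 683. *Lrrtm2* was not called with DESeq2 (0.85), with the length and GC trend removed (0.56), or without the second control or first *Dnmt1* KO library (range with each library left out, 0.64 to 1.03). *Nlgn1* was called lower, as 1 member, with that trend removed (-0.58), with and without the replicate block (adjusted p = 0.000129 and 0.00341). The cause was not tested. With each library left out, 5 to 6 members and 787 to 959 genes were called higher and 738 to 1246 genes lower. Leaving out the second control library gave 787 higher and 738 lower, and leaving out the first gave 787 lower. *Nxph3* changed sign, from -0.54 to 0.59. Per summed interneuron marker, *Nrxn2* (-0.10), *Nlgn2* (-0.28) and *Nlgn3* (-0.14) turned lower. The replicate block called 6 members and 1402 genes higher and 1555 genes lower, and changed no member's call, but called 1 protease and 2 other organizers lower. With the trend removed as well it called 6 members higher. *Lrrtm1*, *Lrrtm3* and *Nxph3* had no value at a minimum of 50. Low reads limit the Lrrtm genes, whose intervals are wide.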
